A study of Mus musculus with 6 samples.

Results

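The serine/arginine-rich splicing factors (SR proteins) and the heterogeneous nuclear ribonucleoproteins (hnRNPs) were followed in the cerebellum of mice with a conditional knockout of SnoN. The genes were chosen by a rule on symbol and count, with earlier results of these data known. It took every entry of the deposited count table whose symbol is Srsf followed by a number, or starts with Hnrnp. Such an entry also had to hold at least 10 counts summed over the 6 libraries. The name rule found 34 of the 41228 entries, and 32 of these had 10 counts or more. Hnrnpa1 was listed again with the same counts, which left 31 distinct genes, 11 for SR proteins and 20 for hnRNPs. All 31 passed the filter on low counts and stood among the 15457 genes tested. The entries that missed the count rule were Hnrnpa1l2-ps, with 3 counts in all, and a second entry of Srsf1, with 0.

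Single-end RNA sequencing libraries had been made from total RNA of the cerebellum at 6 days of age, from 3 SnoN cKO and 3 wild type mice, all of the C57BL/6 strain. SnoN, encoded by Skil, is a regulator of transcription that acts on Smad proteins and so dampens the response to transforming growth factor beta. The sources used here give neither the Cre driver nor the deleted exons, so the share of cerebellar cells that lack SnoN is not known. The title of the series asks about the proliferation of granule neuron precursors, which divide in the outer layer of the cerebellar cortex at this age.

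SR proteins carry RNA recognition motifs (RRMs) and a tail of arginine and serine repeats. They bind exonic enhancers and help the spliceosome choose splice sites, and several also take part in export of mRNA from the nucleus. The hnRNPs coat nascent transcripts, and many of them act at silencers that oppose SR proteins, so that the balance between both families shapes alternative splicing. Genes of both families are known to tune their own expression through exons or introns that send their transcripts to nonsense-mediated decay. In the developing brain, changes in such RNA-binding proteins accompany the passage of dividing precursors to postmitotic neurons.

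Libraries held between 12605870 and 17757711 counts. Levels are in CPM, the usual unit of counts relative to the library total, with totals corrected for composition by edgeR's TMM factors, and are given as means ± SD of 3 libraries. Skil, the targeted gene, was at 76.0, 74.7 and 77.5 CPM in SnoN cKO and at 89.5, 87.5 and 88.9 CPM in wild type, lower in all 3 SnoN cKO libraries. Its log2 fold change was -0.22 (SE 0.04), with an unadjusted p of 0.000379 and an adjusted p of 0.637 by edgeR's quasi-likelihood test. The counts of Xist and of the Y-linked gene Ddx3y went against the labelled sex in a pair of libraries. SnoN cKO 1, labelled female, had 35 counts of Xist and 1146 of Ddx3y, and SnoN cKO 2, labelled male, had 37467 of Xist and 0 of Ddx3y. By these counts SnoN cKO 2 and wild type 1 were the Xist-positive libraries, with 33319 counts of Xist in wild type 1. SnoN cKO 2 also stood apart in the choroid plexus markers, 6 genes that summed to 45.9 CPM there, against 3398 and 3150 CPM in SnoN cKO 1 and 3 and 1762 to 3282 CPM in wild type. SnoN cKO 3 carried 3.75% of its counts on Gm42418, an entry that holds ribosomal RNA-like sequence, against 0.692% in wild type 2 and at most 0.0660% in the other libraries. The part of these features in the results below was not tested. Values without SnoN cKO 2 are given for each member whose log2 fold change they moved by over 1.5 times.

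By edgeR's quasi-likelihood test with Benjamini-Hochberg adjustment over all 15457 genes, 0 of the 31 genes passed the threshold of 0.05, with adjusted p between 0.637 and 0.919. Of all genes tested, 0% passed as well, and DESeq2 and limma-voom also called 0 of the 31. The values leaned upwards in SnoN cKO by small amounts: 30 of the 31 log2 fold changes were above 0, against 49.0% of all genes tested. The 30 include the low-count Srsf1 entry, described below. The median of the 31 was 0.07, with a range of -0.12 to 0.15, and the median of all genes tested was -0.002. Unadjusted, 5 of the 31 had a p under 0.05, all of them higher in SnoN cKO. That is 16.1% of the members, against 3.21% of all genes tested on the higher side, 4.47% on the lower side and 7.68% on either. In 6 genes, all hnRNPs, each SnoN cKO library was above each wild type library, which is 19.4% of the members against 6.95% of all genes tested. In none of the 31 were all SnoN cKO libraries below, against 6.73% of all genes tested, and 13.7% of all genes tested were separated in either direction. In these bulk libraries, more cells of a type and more RNA per cell cannot be told apart. The p-values measure only the spread between these 6 libraries, and with 3 libraries a genotype the smallest two-sided p of an exact permutation test is 0.1.

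The counts at an unadjusted p under 0.05 depended on single libraries. There was 1 such member of 31 without SnoN cKO 2, without SnoN cKO 3 or without wild type 2, where the share of all genes tested, in either direction, was 4.75%, 9.68% and 4.31%, and 0 without wild type 1, where it was 5.49%. The members were below that share in these settings, but all such members were on the higher side. On that side alone the share of all genes was 2.09%, 4.01%, 2.04% and 2.31% in the same order. Whether the members stood below all genes thus depended on the share used. Without SnoN cKO 1 there were 11, against 7.97% of all genes in either direction and 3.52% on the higher side. Without wild type 3 there were 7, against 8.81% and 3.68%. With both SnoN cKO 1 and SnoN cKO 2 left out, 1 member was at that level, against 4.51% of all genes, and 26 of 31 log2 fold changes were above 0. Members without overlap and higher numbered 15 without SnoN cKO 1, 7 without SnoN cKO 2, 10 without SnoN cKO 3, 12 without wild type 1, 7 without wild type 2 and 14 without wild type 3. With fewer samples the share of all genes also grew, to 12.9%, 10.8%, 14.2%, 11.5%, 11.7% and 14.2% in the same order.

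**Figure D1:**
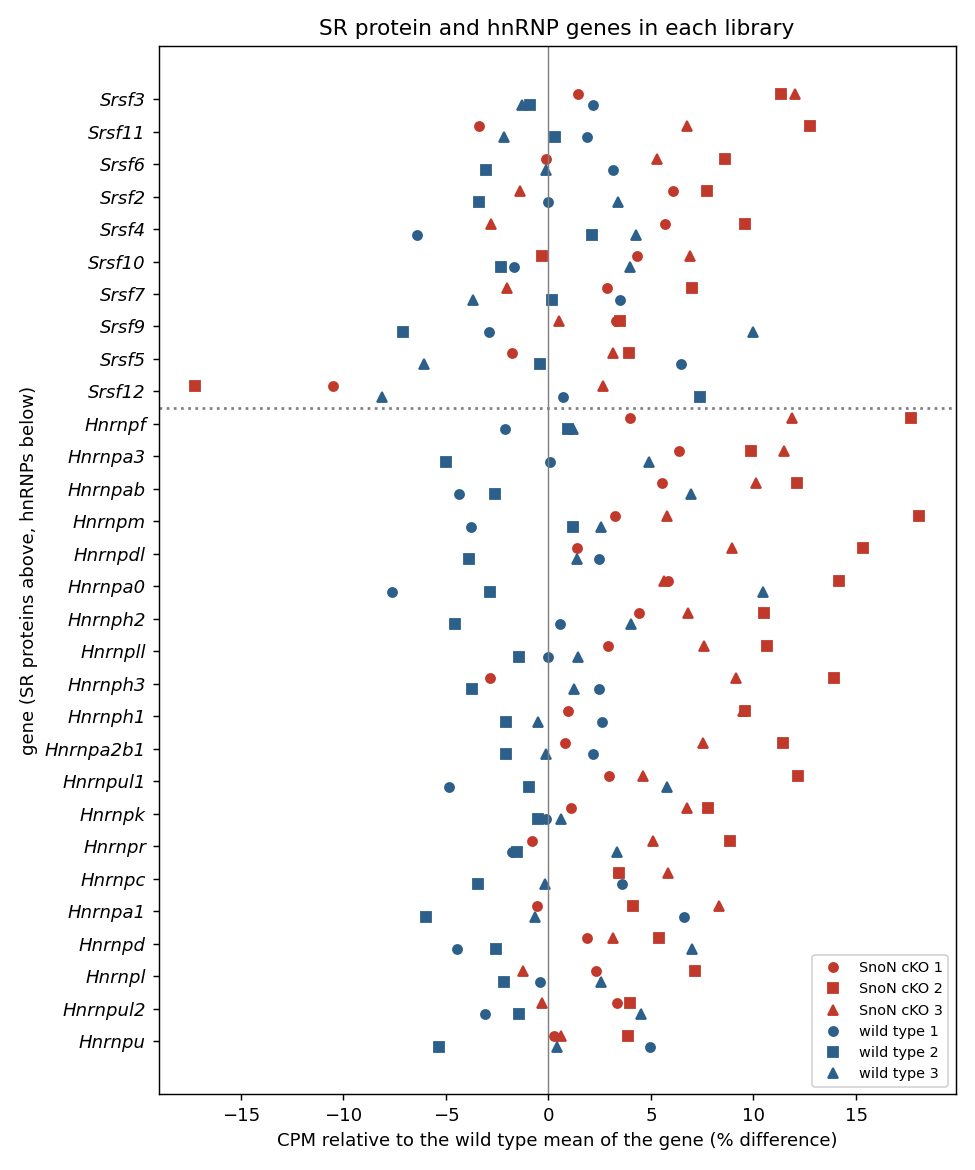
CPM of each SR protein gene (above the dotted line) and hnRNP gene (below it) in each library, as the percent difference from the wild type mean of that gene, with SnoN cKO libraries in red and wild type libraries in blue. Srsf1 is left out for its low counts. SnoN cKO 2 is the highest library for 19 of the 31 genes and wild type 2 the lowest for 16.

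The promoters of 4 members are shown, because these are the genes the results turn on among those with a single promoter entry in RefSeq: the 3 with the smallest p, and Srsf12, the gene with a log2 fold change below 0. Each line gives the 250 bases before the annotated start, 5′ to 3′ on the strand of the gene, from RefSeq on build GRCm38.p6. Hnrnpa3 is at chr2:75659009-75659258 (+ strand), Srsf3 at chr17:29032410-29032659 (+ strand), Hnrnpab at chr11:51606882-51607131 (− strand) and Srsf12 at chr4:33209022-33209271 (+ strand). Capitals mark the letters searched for on both strands, which were CCGGAAG (bound by ETS factors), GCGCA followed by any base and GCGC (NRF1), CACGTG (the E-box), CCAAT (the CCAAT box), TATAAA (the TATA box) and CAGACA (bound by Smad proteins).
Hnrnpa3: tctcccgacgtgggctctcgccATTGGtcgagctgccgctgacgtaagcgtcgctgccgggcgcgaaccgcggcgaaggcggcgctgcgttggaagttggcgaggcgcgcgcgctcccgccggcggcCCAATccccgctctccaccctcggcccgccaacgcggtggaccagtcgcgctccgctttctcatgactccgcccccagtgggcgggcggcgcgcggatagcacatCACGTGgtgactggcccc
Srsf3: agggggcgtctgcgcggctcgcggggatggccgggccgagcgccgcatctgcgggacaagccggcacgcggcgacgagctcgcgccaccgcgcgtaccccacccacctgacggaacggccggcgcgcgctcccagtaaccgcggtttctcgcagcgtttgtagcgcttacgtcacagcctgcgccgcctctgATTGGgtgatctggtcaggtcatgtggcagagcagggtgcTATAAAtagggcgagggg
Hnrnpab: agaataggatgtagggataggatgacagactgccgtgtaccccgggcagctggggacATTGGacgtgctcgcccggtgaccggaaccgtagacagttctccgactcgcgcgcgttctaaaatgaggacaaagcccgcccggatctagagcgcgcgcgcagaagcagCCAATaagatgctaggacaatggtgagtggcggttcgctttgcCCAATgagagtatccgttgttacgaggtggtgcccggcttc
Srsf12: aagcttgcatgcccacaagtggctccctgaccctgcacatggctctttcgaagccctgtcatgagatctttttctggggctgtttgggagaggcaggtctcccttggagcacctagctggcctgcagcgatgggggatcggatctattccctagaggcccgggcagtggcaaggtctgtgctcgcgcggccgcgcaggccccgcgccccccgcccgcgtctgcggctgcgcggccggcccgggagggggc
Hnrnpa3 held 2 CCAAT boxes and 1 E-box, Srsf3 held 1 CCAAT box and 1 TATA box near the start, and Hnrnpab held 3 CCAAT boxes. In Srsf12 none of the 6 motifs was found in this window.

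Over both families, 29 of the 31 genes matched RefSeq by symbol, with 41 promoter entries, and Hnrnpll and Hnrnpul2 had no entry. These promoters were rich in G and C, with a median of 68% against 52.4% over all 32851 entries, and they held a median of 23 CpG against 6. The CCAAT box was found in 17 of 27 hnRNP entries and 3 of 14 SR entries, against 33.85% of all entries. The ETS letters were found in 3 of 27 hnRNP entries and 6 of 14 SR entries, against 6.91% of all. NRF1 letters were found in 7 of the 41 entries, against 3.74% of all, and the E-box in 3 of 41, against 6.02%. The TATA box was found in 3 of 41 entries, against 12.37% of all. The Smad-bound letters CAGACA were found in 1 of 41 entries, that of an hnRNP, against 17.1% of all. A match describes these letters and not a bound site, and no motif overlap between CCAAT and the other letters was removed. The shares were not adjusted for the higher G and C content of the members' promoters, so they do not compare promoters of like composition. They count entries and not genes, with 41 entries for 29 member genes and 32851 entries for 27025 genes over all. Entries of the same gene are not independent.

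Among the SR proteins with a single RRM, Srsf3 had the smallest p of the family. Srsf3, the smallest SR protein and an adaptor for mRNA export, was at 218, 240 and 241 CPM in SnoN cKO 1, 2 and 3 and at 220, 213 and 213 CPM in wild type 1, 2 and 3. SnoN cKO 1 lay within the wild type range and the other SnoN cKO libraries lay above it. The means were 233 ± 12.8 CPM in SnoN cKO and 215 ± 4.06 CPM in wild type (SD, n = 3 each), a log2 fold change of 0.11 (SE 0.05) with an unadjusted p of 0.0330 and an adjusted p of 0.637 in edgeR.

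Srsf11, an SR protein found at the spliceosome, was at 321, 375 and 355 CPM in SnoN cKO and at 339, 334 and 325 CPM in wild type. Its lowest and its highest library were both SnoN cKO, and the log2 fold change was 0.08 (SE 0.06), or 0.02 without SnoN cKO 2 and 0.13 without SnoN cKO 1. Srsf2, a component of nuclear speckles that binds exonic enhancers, was at 296, 301 and 275 CPM in SnoN cKO and at 279, 270 and 289 CPM in wild type. The genotypes overlapped in Srsf2 and the log2 fold change was 0.06 (SE 0.05). Annotated exons of Srsf2 share 25.3% of their bases with other genes, and the library kit does not mark strand, so part of its reads may belong to a neighbour. Srsf7, which resembles Srsf3 and carries a zinc knuckle, and Srsf10, a splicing repressor when dephosphorylated, differed by 0.04 (SE 0.05) and 0.05 (SE 0.05) on the log2 scale.

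Srsf12, a divergent member that opposes other SR proteins in splicing assays, was the exception in sign. It was at 22.2, 20.6 and 25.5 CPM in SnoN cKO and at 25.0, 26.7 and 22.8 CPM in wild type. The ranges overlapped, with SnoN cKO 3 above wild type 1 and 3. The means were 22.8 ± 2.51 CPM in SnoN cKO and 24.9 ± 1.94 CPM in wild type (SD, n = 3 each), and the log2 fold change was -0.12 (SE 0.10) with an adjusted p of 0.739 in edgeR. Without both SnoN cKO 1 and SnoN cKO 2 it was 0.03, so the sign depended on these libraries.

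The 5 SR genes with a pair of RRMs had log2 fold changes of 0.03 to 0.14. The value of 0.14 was that of the low-count Srsf1 entry, described below, and the next highest was 0.06 in Srsf6. Srsf6, a regulator of exon inclusion that was named for its size as SRp55 in older work, was at 408, 444 and 430 CPM in SnoN cKO and at 421, 396 and 408 CPM in wild type. SnoN cKO 2 and 3 lay above the wild type range and SnoN cKO 1 within it. The means were 427 ± 18.02 CPM in SnoN cKO and 409 ± 12.72 CPM in wild type (SD, n = 3 each), a log2 fold change of 0.06 (SE 0.05), or 0.04 without SnoN cKO 2. Srsf4, Srsf5 and Srsf9, which regulate splice site choice like Srsf6, had log2 fold changes of 0.06 (SE 0.06), 0.03 (SE 0.05) and 0.04 (SE 0.06). The sign of Srsf5 turned without wild type 3, at -0.02, and that of Srsf9 without wild type 2, at -0.01. Exons annotated to Srsf4 share 43.0% of their bases with other genes.

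The Srsf1 entry could not be read as the level of Srsf1, the founding member of the family, which mouse embryos need to develop. It held 13, 27 and 38 counts in SnoN cKO and 17, 31 and 16 counts in wild type, 142 in all, and was the member nearest to the count rule on its inside. That is 1.02, 1.83 and 2.23 CPM in SnoN cKO and 1.33, 2.06 and 1.25 CPM in wild type. The log2 fold change of 0.14 had an SE of 0.33, and its interval of 95% ran from -0.58 to 0.87, so a change of moderate size was not detectable at this depth.

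**Figure D2:**
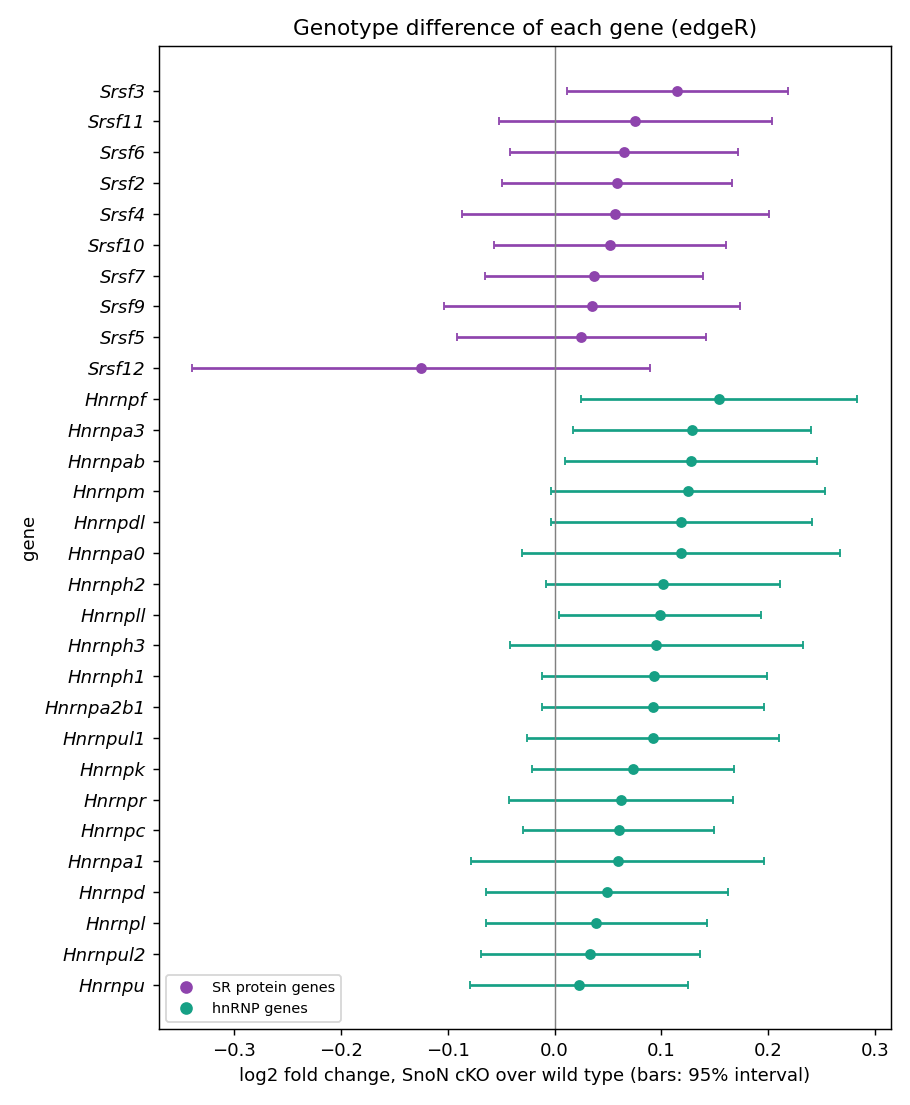
Log2 fold change of SnoN cKO over wild type with its 95% interval for each gene, from edgeR's fit over all genes, SR protein genes in purple and hnRNP genes in green. Srsf1 is left out for its wide interval. The points run from -0.12 in Srsf12 to 0.15 in Hnrnpf, and the intervals of Hnrnpf, Hnrnpa3, Hnrnpab, Hnrnpll and Srsf3 lie above 0 before adjustment for multiple tests.

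The A/B hnRNPs bind UAG-like and purine-rich elements and commonly repress exons. Hnrnpa3, a member that also binds RNA trafficking elements, was at 80.5, 83.2 and 84.4 CPM in SnoN cKO and at 75.7, 71.9 and 79.4 CPM in wild type. Each SnoN cKO library was above each wild type library, by a narrow gap between SnoN cKO 1 and wild type 3. The means were 82.7 ± 1.99 CPM in SnoN cKO and 75.7 ± 3.75 CPM in wild type (SD, n = 3 each), a log2 fold change of 0.13 (SE 0.05) with an unadjusted p of 0.0276 and an adjusted p of 0.637 in edgeR.

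Hnrnpab, a DNA- and RNA-binding protein known as CArG-binding factor A, was at 561, 596 and 585 CPM in SnoN cKO and at 508, 518 and 568.4 CPM in wild type. Wild type 3 lay above SnoN cKO 1, so the genotypes overlapped. The means were 581 ± 17.9 CPM in SnoN cKO and 532 ± 32.3 CPM in wild type (SD, n = 3 each), a log2 fold change of 0.13 (SE 0.05) with an unadjusted p of 0.0362. Its exons share 29.1% of their bases with other annotated genes.

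Hnrnpa2b1, which carries mRNAs to the processes of glia and neurons, was at 1435, 1586 and 1531 CPM in SnoN cKO and at 1455, 1394 and 1422 CPM in wild type. SnoN cKO 1 lay within the wild type range. The means were 1517 ± 76.6 CPM in SnoN cKO and 1423 ± 30.4 CPM in wild type (SD, n = 3 each), and the log2 fold change was 0.09 (SE 0.05), or 0.06 without SnoN cKO 2. Hnrnpa0, a binder of AU-rich elements whose gene has a single annotated transcript, was at 663, 716 and 662 CPM in SnoN cKO and at 579, 609 and 692 CPM in wild type. Wild type 3 exceeded SnoN cKO 1 and 3, and the log2 fold change was 0.12 (SE 0.07), or 0.20 without wild type 3 and 0.06 without wild type 1. Hnrnpa1, the best-studied repressor of the group, differed by 0.06 on the log2 scale (SE 0.06), and since the genome holds many processed copies of it, its counts are uncertain.

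The F/H hnRNPs bind runs of G. Hnrnpf, a regulator of exon inclusion near such runs, had the largest log2 fold change and the smallest p of the hnRNPs. It was at 35.2, 39.8 and 37.8 CPM in SnoN cKO and at 33.1, 34.1 and 34.2 CPM in wild type, with no overlap between the genotypes. The means were 37.6 ± 2.32 CPM in SnoN cKO and 33.8 ± 0.625 CPM in wild type (SD, n = 3 each), a log2 fold change of 0.15 (SE 0.06) with an unadjusted p of 0.0241 and an adjusted p of 0.637 in edgeR. Its exons share 26.5% of their bases with other annotated genes.

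Hnrnph2, a close relative of Hnrnph1 encoded on the X chromosome, was at 74.4, 78.8 and 76.1 CPM in SnoN cKO and at 71.7, 68.0 and 74.1 CPM in wild type. The genotypes did not overlap, though SnoN cKO 1 and wild type 3 were nearly equal, and the log2 fold change was 0.10 (SE 0.05). Hnrnph1, the main member of the group, was at 756, 820 and 819 CPM in SnoN cKO and at 768, 733 and 745 CPM in wild type. SnoN cKO 1 again lay within the wild type range, and the log2 fold change was 0.09 (SE 0.05). Hnrnph3, a shorter relative, had a log2 fold change of 0.10 (SE 0.06).

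Of the remaining hnRNPs, Hnrnpll, Hnrnpm and Hnrnpk were higher in every SnoN cKO library. Hnrnpll, which directs alternative splicing of Ptprc in mouse T cells, was at 172, 185 and 180 CPM in SnoN cKO and at 167, 165 and 170 CPM in wild type. Its means were 179 ± 6.55 CPM in SnoN cKO and 167 ± 2.41 CPM in wild type (SD, n = 3 each), a log2 fold change of 0.10 (SE 0.04) with an unadjusted p of 0.0427 and an adjusted p of 0.638 in edgeR. SnoN cKO 1 was the lowest SnoN cKO library and lay just above wild type 3.

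Hnrnpm, a binder of GU-rich elements, was at 441, 505 and 452 CPM in SnoN cKO and at 412, 433 and 439 CPM in wild type. The gap between SnoN cKO 1 and wild type 3 was small beside the distance to SnoN cKO 2, and the log2 fold change of 0.12 (SE 0.06) was 0.06 without SnoN cKO 2. Its exons share 14.7% of their bases with other annotated genes. Hnrnpk, a binder of C-rich RNA and DNA through its KH domains, was at 339, 361 and 358 CPM in SnoN cKO and at 334, 333 and 337 CPM in wild type, a log2 fold change of 0.07 (SE 0.04). The wild type libraries lay close together at 335 ± 1.88 CPM, and SnoN cKO 1 exceeded them by less than it fell short of the other SnoN cKO libraries, at a mean of 352 ± 12 CPM (SD, n = 3 each).

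Hnrnpdl, a paralogue of the decay factor Hnrnpd, was at 386, 439 and 415 CPM in SnoN cKO and at 390, 366 and 386 CPM in wild type. SnoN cKO 2 and 3 lay above the wild type range, and the log2 fold change was 0.12 (SE 0.05), or 0.07 without SnoN cKO 2. Hnrnpd itself, which binds AU-rich elements and speeds mRNA decay, had a log2 fold change of 0.05 (SE 0.05). Hnrnpc, which binds tracts of U and keeps cryptic exons out of mRNA, was at 215, 216 and 221 CPM in SnoN cKO and at 216, 201 and 208 CPM in wild type. Wild type 1 lay among the SnoN cKO libraries, and the log2 fold change was 0.06 (SE 0.04).

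Hnrnpl, a binder of CA repeats and the paralogue of Hnrnpll, was at 417, 437 and 403 CPM in SnoN cKO and at 406, 399 and 418 CPM in wild type. SnoN cKO 2 lay above the wild type range and wild type 2 below the SnoN cKO range, and the log2 fold change was 0.04 (SE 0.05). Hnrnpr, which is found on mRNAs in axons, was at 167, 183 and 177 CPM in SnoN cKO and at 165, 166 and 174 CPM in wild type, with a log2 fold change of 0.06 (SE 0.05). Hnrnpul2, a relative of Hnrnpu with a part in DNA repair, was at 413, 415 and 398 CPM in SnoN cKO and at 387, 394 and 417 CPM in wild type, with a log2 fold change of 0.03 (SE 0.05). The ranges overlapped in these 3 genes. Hnrnpul1 differed by 0.09 on the log2 scale (SE 0.05), and Hnrnpu, a nuclear scaffold protein that helps to hold Xist RNA on the chromosome, had 0.02 (SE 0.05). The sign of Hnrnpu turned without wild type 2, at -0.01.

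By family, 10 of 11 SR genes and 20 of 20 hnRNP genes had log2 fold changes above 0, with medians of 0.06 and 0.09. The 10 SR genes include the low-count Srsf1 entry, whose sign turned without SnoN cKO 3, at -0.11. At an unadjusted p under 0.05 stood 1 SR gene and 4 hnRNP genes, against 3.21% of all genes tested on the higher side. A difference between the families was not tested, since the genes of a family share the same 6 libraries. The summed level of the SR genes was 2007, 2143 and 2070 CPM in SnoN cKO and 2033, 1962 and 1977 CPM in wild type. SnoN cKO 1 lay below wild type 1, and the means of 2073 ± 68.0 CPM in SnoN cKO and 1991 ± 37.4 CPM in wild type (SD, n = 3 each) differed by 4.14%, or by 2.40% without SnoN cKO 2.

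The hnRNP genes summed to 7151, 7719 and 7418 CPM in SnoN cKO and to 6938, 6837 and 7187 CPM in wild type. SnoN cKO 1 was slightly below wild type 3, and the other SnoN cKO libraries were above the wild type range. The means of 7429 ± 284 CPM in SnoN cKO and 6987 ± 180 CPM in wild type (SD, n = 3 each) differed by 6.32%, or by 4.26% without SnoN cKO 2. The ratio of hnRNP to SR sums, a plain measure of the balance between both families, was 3.56, 3.60 and 3.58 in SnoN cKO and 3.41, 3.48 and 3.64 in wild type. The ratios of the 3 SnoN cKO libraries lay close together inside the wild type range.

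Many members shared their highest or their lowest library. SnoN cKO 2 was the highest library for 19 of the 31 genes, SnoN cKO 3 for 6 and SnoN cKO 1 for 0. Wild type 2 was the lowest for 16 genes and wild type 1 for 9. Relative to the wild type mean of each gene, 23, 29 and 26 genes were higher in SnoN cKO 1, 2 and 3, and 15, 7 and 20 in wild type 1, 2 and 3. The median log2 fold change without SnoN cKO 2 was 0.03 for SR genes and 0.06 for hnRNP genes. Leaving out SnoN cKO 2 moved 17 of the 31 log2 fold changes by over 1.5 times and brought 28 closer to 0. Beside the genes given above, Srsf2 was at 0.03, Srsf4 at 0.02, Srsf5 at 0.01, Srsf7 at 0.006, Srsf10 at 0.08 and Srsf12 at -0.05 without it. Among the hnRNPs, Hnrnpul1 was at 0.05, Hnrnph3 at 0.05, Hnrnpr at 0.03, Hnrnpl at 0.008, Hnrnpul2 at 0.02 and Hnrnpu at 0.007. In 8 genes (Srsf3, Hnrnpf, Hnrnpa3, Hnrnpab, Hnrnpll, Hnrnph1, Hnrnph2 and Hnrnpk) no single library moved the log2 fold change by over 1.5 times, and in 23 at least 1 did.

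Markers of dividing cells and of some other cell types shared the highest and the lowest library with both families, but not the whole order. The 19 markers summed to 2729, 3014 and 2670 CPM in SnoN cKO and to 2565, 2529 and 2701 CPM in wild type, with 17 of 19 log2 fold changes above 0 and a median of 0.13. As with both families of splicing factors, SnoN cKO 2 was the highest library and wild type 2 the lowest. SnoN cKO 3 lay below wild type 3 in the dividing-cell markers but above it in both families. The markers of Bergmann glia and astrocytes and of endothelium also had SnoN cKO 2 highest and wild type 2 lowest. The 6 granule precursor markers summed to 1355, 1476 and 1258 CPM in SnoN cKO and to 1219, 1255 and 1346 CPM in wild type, and 6 of 6 log2 fold changes were above 0. Markers of Bergmann glia and astrocytes summed to 3498, 3707 and 3458 CPM in SnoN cKO and to 3340, 3227 and 3262 CPM in wild type. The sum was above the wild type range in each SnoN cKO library, but the markers did not all move together. Of the 6, 5 log2 fold changes were above 0 and 1 below. At an unadjusted p under 0.05 in edgeR were 4 higher and 1 lower, against 3.21% and 4.47% of all genes tested. Endothelial markers summed to 377, 410 and 379 CPM in SnoN cKO and to 370, 364 and 374 CPM in wild type, with 4 of 5 above 0. Microglial markers summed to 116, 138 and 125 CPM in SnoN cKO and to 126, 118 and 114 CPM in wild type, with 6 of 6 above 0. Oligodendrocyte markers were lowest in SnoN cKO 2, at 1233, 1072 and 1290 CPM in SnoN cKO and 1269, 1320 and 1257 CPM in wild type, with 6 of 7 log2 fold changes below 0. Meningeal markers summed to 783, 847 and 928 CPM in SnoN cKO and to 1029, 836 and 949 CPM in wild type, with 5 of 5 below 0. The 8 markers of postmitotic neurons summed to 4006, 4050 and 3914 CPM in SnoN cKO and to 3959, 3893 and 4313 CPM in wild type, with 4 of 8 above 0. Markers of the brainstem and midbrain, which a dissection can carry along, summed to 7.21, 4.20 and 10.3 CPM in SnoN cKO and to 13.8, 17.2 and 9.28 CPM in wild type, with 6 of 6 tested below 0. In that list Hoxa4, Hoxa5, Hoxb3 and Hoxb4 were at 0 in at least 1 library. The 6 markers of the cerebellar nuclei and unipolar brush cells summed to 187, 132 and 195 CPM in SnoN cKO and to 248, 234 and 211 CPM in wild type. The sum was below the wild type range in each SnoN cKO library, with 6 of 6 below 0. Purkinje markers, which define the cerebellar cortex with those of granule precursors, summed to 1225, 1384 and 1254 CPM in SnoN cKO and to 1156, 1185 and 1248 CPM in wild type, with 6 of 6 above 0. The part of the make-up of the tissue in the levels of the splicing factors was not tested.

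**Figure D3:**
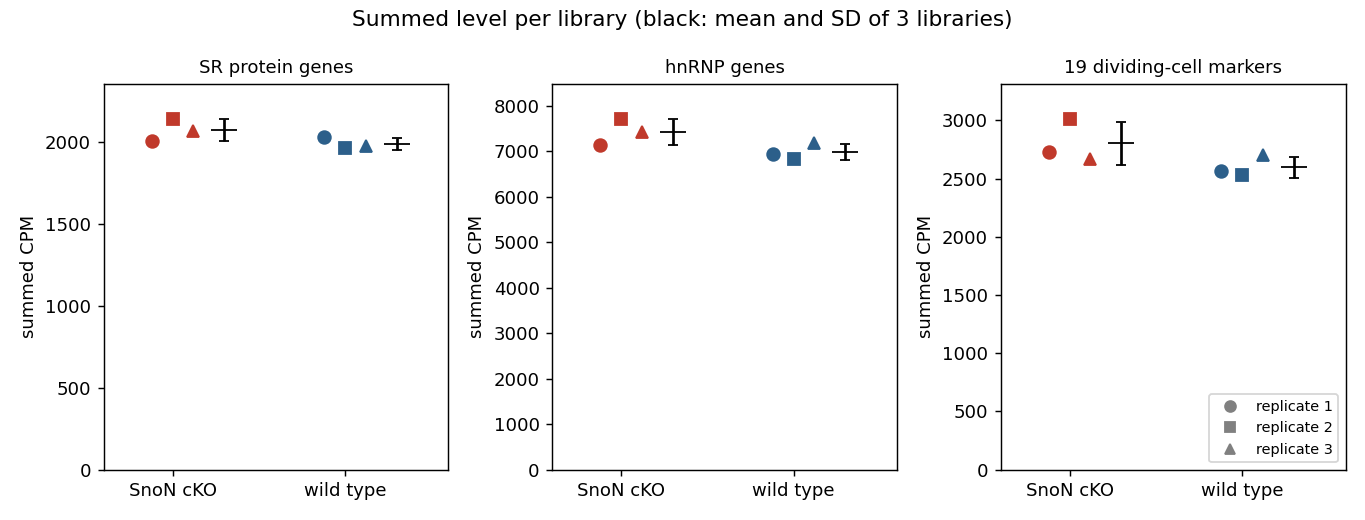
Summed CPM of the 11 SR protein genes, the 20 hnRNP genes and 19 markers of dividing cells in each library, with SnoN cKO left of wild type and the mean and SD of 3 libraries in black. In all 3 panels SnoN cKO 2 is the highest library and wild type 2 the lowest, and the genotypes overlap.

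Set side by side per kilobase of exon, the members covered a wide range of levels. CPM per kb used the summed exon length of GENCODE M21, a later annotation than the mm9 build of the deposited counts, so the order is approximate. This length joins the exons of all annotated transcripts of a gene and can exceed that of the transcripts present. Hnrnpa0 was at 254 ± 11.4 CPM per kb in SnoN cKO and 234 ± 21.9 CPM per kb in wild type (SD, n = 3 each). Hnrnpa2b1 was at 230 ± 11.6 CPM per kb in SnoN cKO and 216 ± 4.61 CPM per kb in wild type (SD, n = 3 each). Hnrnpab followed with 209 ± 6.43 CPM per kb in SnoN cKO and 191 ± 11.6 CPM per kb in wild type (SD, n = 3 each).

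Neighbours within these 3 A/B genes overlapped over the 6 libraries, while Hnrnph1, next at a mean of 132 CPM per kb over all libraries, lay apart from Hnrnpab. Srsf2 and Srsf6 led the SR proteins at means of 96.3 and 86.9 CPM per kb and overlapped each other. Hnrnpdl, Srsf5 and Hnrnpl followed at 82.5, 70.3 and 69.5 CPM per kb. At the low end stood Hnrnpf at 11.7, Hnrnpr at 7.74 and Srsf12 at 7.57 CPM per kb, of which Hnrnpr and Srsf12 overlapped. The place of Hnrnpr rests on its annotated length of 22.2 kb, against 3.15 kb for Srsf12. Before division by length, Hnrnpr was at means of 176 CPM in SnoN cKO and 168 CPM in wild type, and Srsf12 at 22.8 and 24.9 CPM. The Srsf1 entry was last at 0.283 CPM per kb, far under its neighbour.

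**Figure D4:**
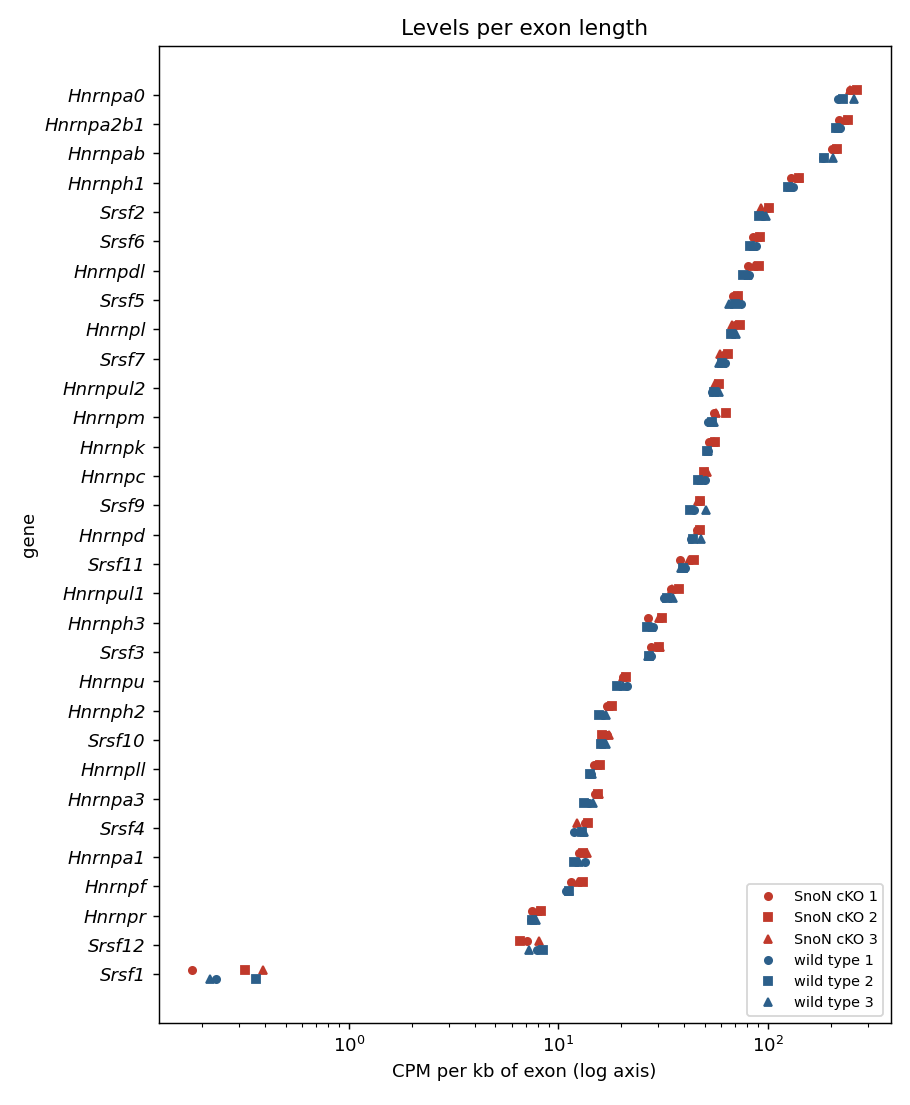
CPM per kb of exon for all 31 genes in each library on a log axis, ordered by the mean over the 6 libraries, with SnoN cKO in red and wild type in blue. Hnrnpa0, Hnrnpa2b1 and Hnrnpab stand at the top near 200 CPM per kb and above, and the Srsf1 entry lies below 1 CPM per kb.

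Transcripts subject to nonsense-mediated decay were annotated for 9 of 11 SR genes and 10 of 20 hnRNP genes in GENCODE M21, against 27.5% of the 14002 tested genes that matched by symbol. Retained-intron transcripts were annotated for 8 of 11 SR genes and 14 of 20 hnRNP genes, against 57.0%. The 19 members with a decay transcript had a median log2 fold change of 0.06, and the 12 without had 0.10. This split is mixed with family, as the medians of SR and hnRNP genes were 0.06 and 0.09, and it was not tested. The deposited counts are per gene, so productive transcripts and transcripts bound for decay were not told apart.

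Other genes of the splicing machinery, 87 tested genes of 91 listed in 6 groups, gave 60 log2 fold changes above 0 and 27 below, with a median of 0.04. None passed the adjusted threshold in edgeR, and 5 higher and 2 lower genes of the 87 had an unadjusted p under 0.05, against 3.21% and 4.47% of all genes tested. Without overlap between the genotypes were 9 higher and 3 lower genes, against 6.95% and 6.73% of all genes tested. Among the close relatives of the hnRNPs, 12 of 14 were above 0 with a median of 0.06. Raly, a paralogue of Hnrnpc, differed by 0.09 on the log2 scale (SE 0.04), and Syncrip, a paralogue of Hnrnpr, and Ewsr1, an RNA-binding protein of the FET family, each had 0.07 (SE 0.04). In these 3 genes each SnoN cKO library was above each wild type library.

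Of the kinases and import receptors of SR proteins, 4 of 12 were above 0, with a median of -0.01. Tnpo2, a transportin that carries RNA-binding proteins into the nucleus, was at 165, 151 and 156 CPM in SnoN cKO and at 167, 168 and 175 CPM in wild type, a log2 fold change of -0.11 (SE 0.05) with an unadjusted p of 0.0351. Each SnoN cKO library was below each wild type library. Clk2, a kinase of SR proteins, and Dyrk1a, a kinase of the same class, had log2 fold changes of 0.07 and 0.07, and the sign of Dyrk1a turned without SnoN cKO 2, at -0.02.

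SR-related proteins and coactivators gave 15 of 23 above 0, with a median of 0.04. Tra2b, an activator that binds GAA-rich enhancers, was at 84.5, 88.6 and 84.5 CPM in SnoN cKO and at 78.9, 80.6 and 74.7 CPM in wild type, a log2 fold change of 0.14 (SE 0.05) with an unadjusted p of 0.0171. The genotypes of Tra2b did not overlap. Rnps1, which joins splicing to the exon junction complex, had 0.14 (SE 0.06) with an unadjusted p of 0.0465, and Luc7l2, a partner of the U1 particle, had 0.07 (SE 0.04).

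In the groups that recognise splice sites, 16 of 18 genes were above 0, with a median of 0.06. Snrpa1, a protein of the U2 particle, was at 49.6, 53.5 and 50.3 CPM in SnoN cKO and at 44.4, 45.7 and 45.8 CPM in wild type, a log2 fold change of 0.17 (SE 0.05) with an unadjusted p of 0.00765. Its partner Snrpb2 had 0.15 (SE 0.05) with an unadjusted p of 0.0190, and both were higher in every SnoN cKO library. U2af2, which binds the polypyrimidine tract, had 0.09.

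The exon junction complex and decay factors gave 10 of 13 above 0, with a median of 0.03. Magoh, a core subunit of the complex, was at 39.5, 38.8 and 43.1 CPM in SnoN cKO and at 33.5, 34.4 and 34.1 CPM in wild type, a log2 fold change of 0.25 (SE 0.06) with an unadjusted p of 0.00118. Upf1, the helicase of nonsense-mediated decay, was at 121, 115 and 113 CPM in SnoN cKO and at 124, 127 and 129 CPM in wild type, a log2 fold change of -0.13 (SE 0.05) with an unadjusted p of 0.0205. The genotypes did not overlap in either gene, with Magoh higher and Upf1 lower in SnoN cKO. Rbm8a, the partner of Magoh, had 0.14. In the list of arginine methyltransferases, which modify hnRNPs, 3 of 7 genes were above 0 with a median of -0.02. The 7 include Wdr77, a partner of Prmt5 and not itself a methyltransferase, which was at -0.02. Prmt2, Carm1 and Prmt3 had log2 fold changes of -0.10, -0.09 and -0.09, with no overlap between the genotypes in Prmt2, and Prmt1 was not analysed here.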

How the data were processed

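RNA of 6 cerebella (3 SnoN cKO, 3 wild type, as labelled) was sequenced. The authors deposited raw counts per gene in 1 table. The tools named, per the submitters' processing notes, are STAR 2.0.4b, featureCounts 1.4.5 and Subread, with build mm9. The notes do not tie tools to steps, and the annotation is not given in the sources used here. Whether each library is a separate animal is not stated beyond the labels.

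The table's identifier column did not match its symbols: of 40254 entries whose identifier is in GENCODE M21, 97 had the same symbol there, and none of the members did. The counts followed the symbols, since 98.7% of 1038 olfactory receptor entries by symbol were under 10 counts, against 49.2% of 1026 by identifier. Genes were therefore matched by symbol, a choice made after seeing the data. In 140 cases a symbol was repeated with the same counts and kept once.

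The filter on low counts was filterByExpr of edgeR at a minimum count of 10. Counts were scaled by TMM and fitted with edgeR 4.0.16 in R 4.3.3 by genotype alone, with a two-sided quasi-likelihood test and Benjamini-Hochberg adjustment over 15457 genes at 0.05. The libraries' common coefficient of variation in edgeR was 9.71%. No pair of libraries was a repeat, with a chi-square per degree of freedom of at least 2.79 over 15 pairs. The test was checked on simulated data with planted changes larger than those of any member, so the check does not cover changes of the members' size. DESeq2 1.42.0, limma 3.58.1, other scalings, no filter, covariates for sex and left-out libraries were alternatives.

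The members and lists were chosen with earlier results of these data known. Values per library are given for members at an unadjusted p under 0.05, without overlap between genotypes, with the highest level of their class or with the smallest p in a direction. Each related list gives up to 3 genes with the smallest p. Other names were chosen after their values were seen.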

Additional observations from a re-analysis of the deposited data

How the results depend on the processing

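No member passed the adjusted threshold under any of the 19 alternatives, and the lowest adjusted p of a member ran from 0.497 without the filter on low counts to 0.962 with SnoN cKO 1 and 2 both left out, where the lone SnoN cKO library was assumed to vary like the wild type ones. Over all genes, 0 were called in the main test, 39 without the filter, 6 by DESeq2, 1 with labelled sex as covariate and 7 with both libraries left out. Members at an unadjusted p under 0.05 numbered 5 in the main test, 0 with total count scaling and 10 without the filter, all higher in SnoN cKO. Of all genes, 3.21%, 1.35% and 3.37% were at that level on the higher side in the same order. Total count scaling moved the median of all genes to -0.02. The replicate numbers did not pair the samples (correlations of deviations of -0.04, -0.32 and -0.18). The replicate block gave 2 such members, against 1.9% of all genes on the higher side. Leaving out 1 library at a time gave 0 to 11, beside the shares of all genes given above. Members without overlap numbered 6, against 19 in the 4 libraries labelled male (all higher, where 18.6% of all genes were), 19 with both libraries left out (all higher, where 25% of all genes were) and 7 to 15 with 1 library left out. Fewer samples make overlap rarer. The summed SR difference of 4.14% was 6.93% in the libraries labelled male, which leave out SnoN cKO 1. These hold the Xist-positive SnoN cKO 2, so neither this set nor the labelled-sex covariate holds sex fixed. With sex read from Xist and Y-linked counts as covariate, 0 genes were called. In that fit 5 members were at an unadjusted p under 0.05, against 3.02% of all genes on the higher side. The log2 fold change kept its sign in 579 of 589 member values. The exceptions were Srsf12, Srsf2, Srsf4, Srsf7, Hnrnpl and Hnrnpul2 with both libraries left out, Srsf1 without SnoN cKO 3, Srsf9 and Hnrnpu without wild type 2 and Srsf5 without wild type 3. The cause of these moves was not tested. Depth limits Srsf1 most, with 142 counts, and over the members the median upper 95% limit of the difference was 14.6%.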
